A study of Oryctolagus cuniculus with 18 samples.

Results

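Gene expression in rabbit (Oryctolagus cuniculus) expanded blastocysts was set against that in early morulae, called blastocysts and morulae below, using 2052 cDNA clones spotted on filters. The comparison rested on 12 of the 18 arrays of the series and 6 of its 9 embryo pools, chosen by their stage label, and all clones with names starting with lca entered. All embryos had developed in vivo in female rabbits. Blastocyst pool 1 held 16 embryos from 2 females at 96 h post coitum, blastocyst pool 2 held 37 embryos from 4 females at 90 h and blastocyst pool 3 held 60 embryos from 7 females at 90 h. Morula pools 1, 2 and 3 were collected at 58 h and held 34, 35 and 32 embryos, each from 2 females. No strain, treatment or allele is given for any pool. One aliquot of each pool's RNA was turned into antisense RNA (aRNA) by in vitro transcription and another was amplified by PCR in 2 rounds of 18 cycles, labelled with 33P and hybridised to 1 array per amplification. The remaining 6 arrays carried 4-cell embryos and did not enter the comparison.

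Between these stages the rabbit embryo makes its first lineage decision. The cells of the morula flatten against each other during compaction, and those left on the outside form the trophectoderm, an epithelium with tight junctions that pumps ions and draws water into a growing cavity. The cells inside form the inner cell mass, from which the embryo proper arises, and the rabbit blastocyst then expands strongly before it implants. RNA stored in the egg is broken down through cleavage, while transcription from the embryo's own genome takes over. No table at hand links the clones to genes, so the stage labels could not be checked against markers of trophectoderm, inner cell mass or oocyte RNA, and the clones are given by ID. Whole embryos were pooled. A change in a clone can therefore reflect a different share of a cell type or a different amount of RNA per cell, and these cannot be told apart here.

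The pools grouped by stage. Pools correlated across clones at r of 0.93 to 0.99 among blastocysts, 0.88 to 0.97 among morulae and 0.63 to 0.73 between the stages. The median raw intensity of clone spots ran from 28 to 386 on blastocyst arrays and from 68 to 350 on morula arrays. The files mark no spot as above background, so the 95th percentile of the 153 spots named XWAB on an array served as its detection level. Between 12.6% and 16.1% of clone spots lay above it on blastocyst arrays and between 13% and 25.2% on morula arrays. Morula pool 2 stood apart from the other morula pools (r of 0.89 with pool 1 and 0.88 with pool 3, against 0.97 between these), and its aRNA and PCR arrays had the highest shares above the level, 25.2% and 19.8%. It shared the array code digit 4 of the sample titles with blastocyst pool 3, whose r with the other blastocyst pools was 0.93 and 0.93, and the arrays of these pools were the dimmest of their stage in each amplification.

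Of the 2052 clones, 401 (19.5%) differed between blastocysts and morulae. There were 194 rises (9.45%) and 207 falls (10.1%) in blastocysts relative to morulae (limma on the means of each pool's aRNA and PCR array, Benjamini-Hochberg adjusted p under 0.05 over all clones). At an unadjusted p under 0.05, 657 clones differed. The rises reached further than the falls. Their median size was 1.36 on the log2 scale with a range of 0.60 to 6.38, against a median of 1.20 and a range of 0.56 to 4.83 for the falls. Rises larger than 1 numbered 147 and falls 134, larger than 2 there were 61 rises and 29 falls, and larger than 4 there were 25 rises and 4 falls. The median SE of a change was 0.23. All 3 blastocyst pools lay above all 3 morula pools for 359 clones (17.5%) and below them for 445 clones (21.7%), and the pools overlapped for 1 of the 401 called clones. Quantile normalization gives every array of an amplification the same distribution, so rises and falls are relative to the other clones. With arrays centred on their median in place of quantile normalization, 97 clones rose and 42 fell, so rises made up 69.8% of the calls, against 48.4% in the main fit. Without blastocyst pool 1 there were 252 calls and without blastocyst pool 2 there were 264, with 112 and 120 falls, and without morula pool 1 there were 122 falls. Without morula pool 2 the calls numbered 505, and 684 without both pools of array code 4.

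**Figure D1:**
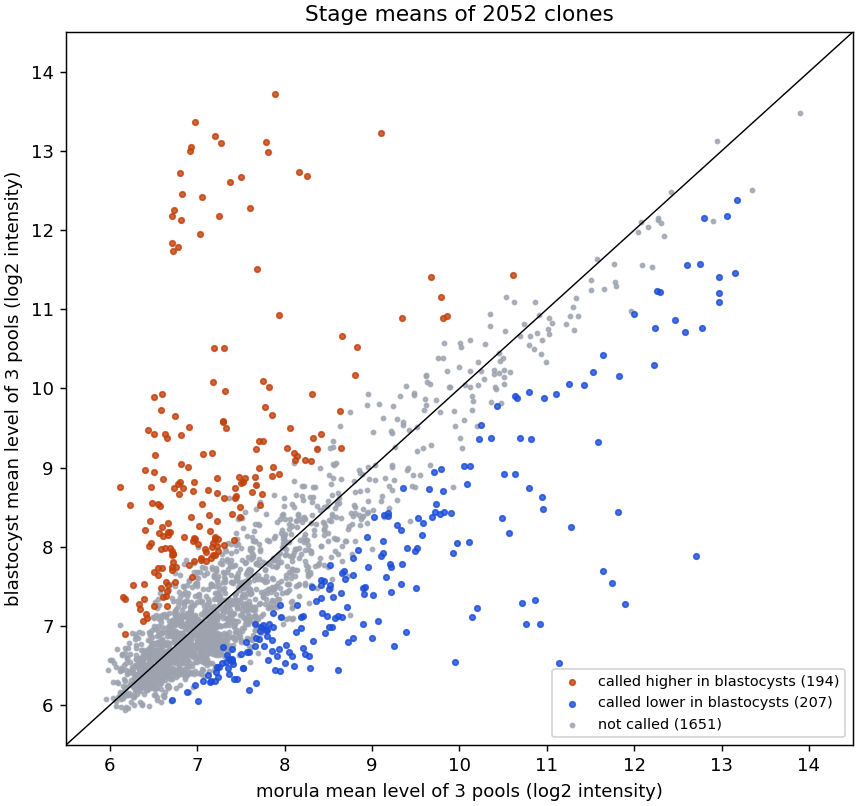
Mean normalized level of each clone over the 3 blastocyst pools (vertical axis, log2 intensity) against that over the 3 morula pools (horizontal axis, log2 intensity), one point per clone, with calls at an adjusted p under 0.05 and the line of equal levels. The 25 clones that rose by more than 4 form a separate cloud at the upper left, with blastocyst means of 11.74 to 13.72 and morula means of 6.71 to 9.10, while most falls lie closer to the line.

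The brightest signals were partly shared between the stages. Of the 100 clones with the highest mean level in blastocysts, 60 were also among the 100 highest in morulae. Among the 100 highest in blastocysts, 35 rose, 16 fell and 49 were not called. Among the 100 highest in morulae, 1 rose, 48 fell and 51 were not called. These lists were ranked on the levels that the comparison uses, so their counts are a description. Dim clones were called less often. The share of called clones was 39.4% in the brightest 25% of clones by mean level (90 rises, 112 falls), 26.3% in the next 25% (79 rises, 56 falls), 10.3% in the one after it (23 rises, 30 falls) and 2.14% in the dimmest (2 rises, 9 falls).

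The largest rise was that of clone lcao0026e02. Its normalized level was 13.18, 13.30 and 13.60 in blastocyst pools 1, 2 and 3, against 6.44, 8.04 and 6.47 in morula pools 1, 2 and 3 (log2 intensity, mean of the aRNA and the PCR array). Every blastocyst pool lay far above every morula pool, and the clone was above the detection level on all 6 blastocyst arrays and on 1 of the 6 morula arrays. Before normalization, its raw intensity was 31620, 26636 and 6010 on the aRNA arrays of blastocyst pools 1, 2 and 3, which differed in brightness. On the aRNA arrays of morula pools 1, 2 and 3 it was 205, 290 and 137. The means were 13.36 ± 0.21 in blastocysts and 6.98 ± 0.91 in morulae (SD, n = 3 pools each), a change of 6.38 ± 0.40 (SE), with a limma adjusted p of 1.328e-05. Because the clone was at or below detection on 5 morula arrays, the change is given as a bound. With each morula array held at no less than its lowest clone spot above the level, blastocysts were at least 21.2-fold higher. The change was 5.87 on aRNA arrays and 6.89 on PCR arrays. Over 17 other settings on the log2 intensity scale it lay between 6.01 and 7.00. The deposited score, whose log base is unknown, gave a difference of 4.59 (limma adjusted p of 0.00289).

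Clone lcao0035c10 behaved alike. Its level was 13.07, 12.97 and 13.10 in blastocyst pools 1, 2 and 3, against 6.22, 8.24 and 6.33 in morula pools 1, 2 and 3. The stages did not overlap, and the clone was above the detection level on all 6 blastocyst arrays and 1 morula array. The means were 13.05 ± 0.07 in blastocysts and 6.93 ± 1.14 in morulae (SD, n = 3 pools each), a change of 6.11 ± 0.48 (SE; limma adjusted p of 3.787e-05), or at least 17.5-fold higher in blastocysts. For both clones the 1 morula array above detection was the aRNA array of pool 2, where lcao0026e02 had a level of 10.06 and lcao0035c10 one of 9.85. The PCR array of the same pool gave 6.01 and 6.64 for them, so the higher level of that pool came mainly from its aRNA array.

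**Figure D2:**
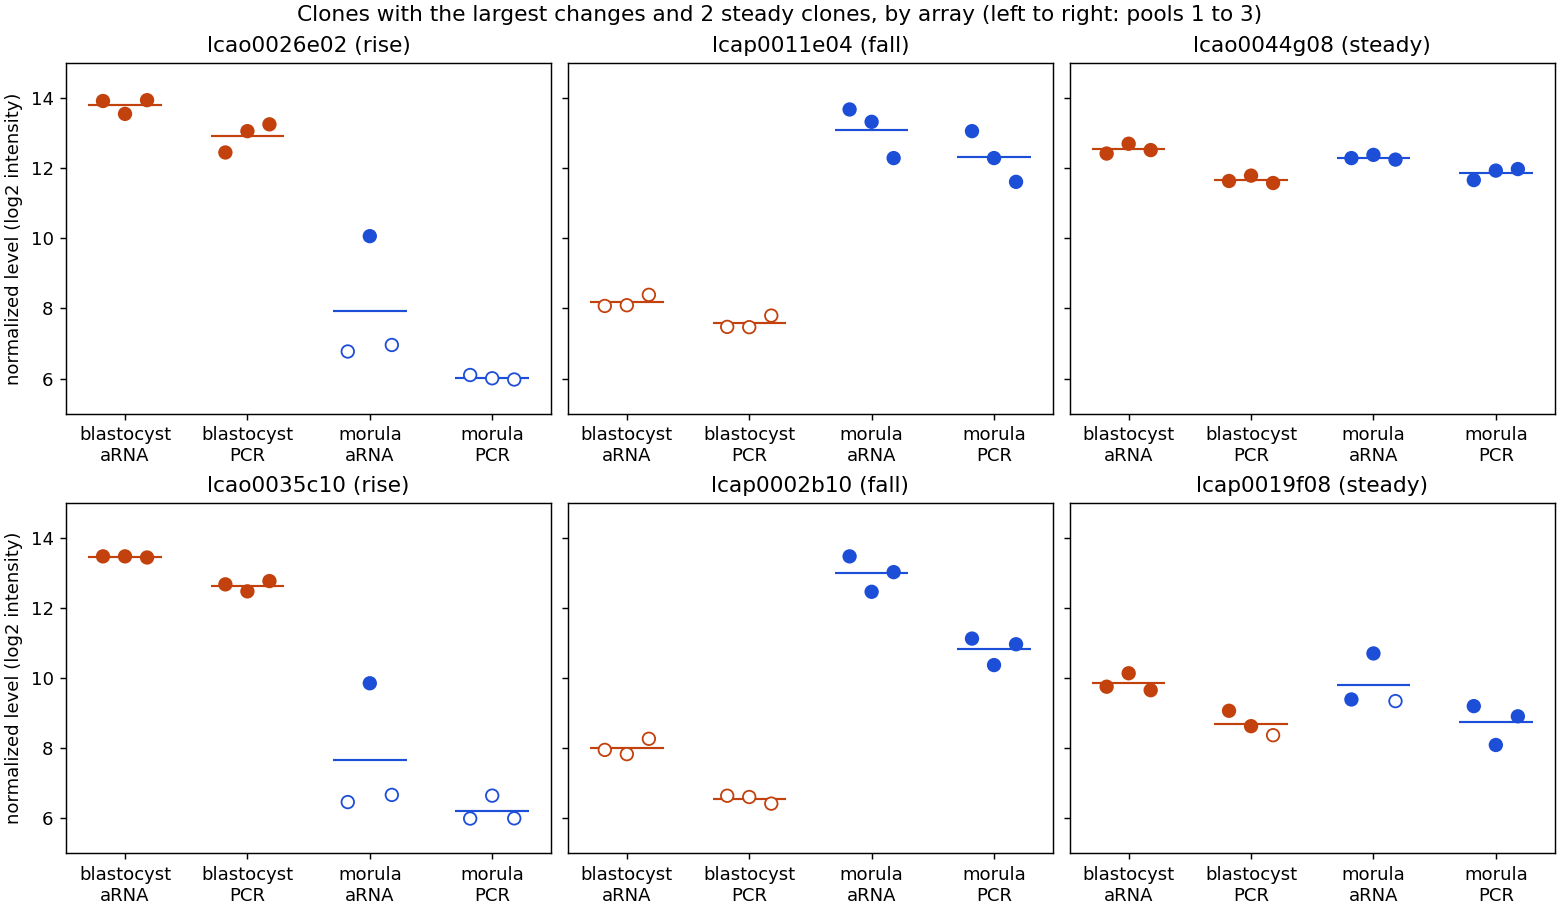
Normalized level (vertical axis, log2 intensity) of the clones with the largest rises, the largest falls and of 2 steady clones on each array, with pools 1 to 3 from left to right in each group of stage and amplification. Filled points lie above the array's detection level, open points do not, and lines are the means of 3 arrays. Both rising clones were open on all morula arrays except the aRNA array of pool 2, and both falling clones were open on all 6 blastocyst arrays.

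The same picture held for the 25 clones that rose by more than 4, set apart by a gap between 3.82 and 4.13 in the size of the change. All 25 were called in the pool fit and on each amplification alone, and all 25 were above the detection level on every blastocyst array. Their median level on the blastocyst aRNA arrays of pools 1, 2 and 3 was 13.17, 13.27 and 13.32, against 7.10, 9.47 and 6.96 on the morula aRNA arrays of pools 1, 2 and 3. On PCR arrays the medians were 12.21, 11.90 and 12.34 in blastocysts and 6.34, 6.78 and 6.23 in morulae. The aRNA array of morula pool 2 was the high one. It held 20 of the 25 clones above its detection level, against 2 and 0 on the morula aRNA arrays of pools 1 and 3, and it was the highest of the 3 morula aRNA arrays for 23 of the 25 clones, against 38.1% of all clones. On PCR arrays morula pool 2 was highest for 17 of the 25, against 37.6% of all clones, with 4 of the 25 above detection. The cause of this was not tested. Without morula pool 2 the 25 clones were all called, with changes of 4.01 to 6.91, against 4.13 to 6.38 with it. Their changes on aRNA arrays ran from 3.20 to 5.91 and on PCR arrays from 4.28 to 6.89. For the 20 clones above detection on 0 or 1 morula array, blastocysts were at least 8.30-fold to at least 26.4-fold higher. All 25 carried the name prefix lcao, and none had an adjacent spot at 4 times its own raw intensity or more. That limit is relative to a clone's own mean intensity over the 12 arrays, so clones this bright in blastocysts meet it less easily.

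The aRNA array of blastocyst pool 3 was far lower than the others for some clones. On it 18 of all clones lay more than 2 below both other blastocyst aRNA arrays, of which 7 were called as rises and 1 as a fall. On the other blastocyst arrays this occurred for 0 of the rises. The median level of the 7 rises on the blastocyst aRNA arrays of pools 1, 2 and 3 was 11.24, 11.11 and 7.37, against 7.18, 7.21 and 6.77 on the morula aRNA arrays of pools 1, 2 and 3. On PCR arrays the medians were 10.26, 9.81 and 9.88 in blastocysts and 6.41, 6.42 and 6.31 in morulae. On the PCR array, blastocyst pool 3 was thus as high as the other blastocyst pools, while on its aRNA array the clones were near the morula level. All 7 were called on PCR arrays alone, with changes of 3.07 to 3.91, and 4 on aRNA arrays alone. These clones were picked out after their values were seen.

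Falls were led by clone lcap0011e04. Its level was 7.77, 7.78 and 8.09 in blastocyst pools 1, 2 and 3, against 13.37, 12.81 and 11.95 in morula pools 1, 2 and 3. All blastocyst pools lay below all morula pools, and the clone was above the detection level on 0 of the 6 blastocyst arrays and on all 6 morula arrays. The means were 7.88 ± 0.18 in blastocysts and 12.71 ± 0.71 in morulae (SD, n = 3 pools each), a change of -4.83 ± 0.33 (SE; limma adjusted p of 1.854e-05). Blastocysts were at least 14.0-fold lower.

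Clone lcap0002b10 had the next largest fall. Its level was 7.29, 7.21 and 7.34 in blastocyst pools 1, 2 and 3, against 12.30, 11.41 and 11.99 in morula pools 1, 2 and 3. It too was above detection on all 6 morula arrays and no blastocyst array. The means were 7.28 ± 0.06 in blastocysts and 11.90 ± 0.45 in morulae (SD, n = 3 pools each), a change of -4.62 ± 0.24 (SE; limma adjusted p of 6.185e-06), or at least 7.98-fold lower in blastocysts. On the PCR arrays of blastocyst pools 1, 2 and 3 its raw intensity was 99, 71 and 22, with detection levels of 713.2, 386.6 and 91.2. On the PCR arrays of morula pools 1, 2 and 3 it was 2663, 381 and 3235. These raw values are not normalized, and the arrays differed in brightness.

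In all, 13 clones fell by more than 3. All 13 were called in the pool fit and on each amplification alone, and all 13 were above detection on every morula array. Their median level on the aRNA arrays was 7.91, 7.83 and 7.90 in blastocyst pools 1, 2 and 3, against 12.46, 11.69 and 11.82 in morula pools 1, 2 and 3. On PCR arrays the medians were 6.82, 6.97 and 6.75 in blastocysts and 10.92, 10.46 and 10.31 in morulae. Every blastocyst array was low and every morula array high for them. For 12 of the 13 no blastocyst array was above detection, and for the other it was the aRNA array of pool 3. Blastocysts were lower by at least 2.06-fold to at least 14.0-fold. All 13 carried the prefix lcap, and 2 of them had an adjacent spot at 4 times their own raw intensity or more, a limit that bright clones meet less easily. All 13 and all 25 of the large rises were called whichever of the 6 pools was left out and under median centring. The highest limma adjusted p for a large rise among those fits was 0.007, and for a large fall it was 0.0355, under median centring. Both sets were picked by their change in the fit on all 6 pools, so their calls in the refits and on each amplification are a description.

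**Figure D3:**
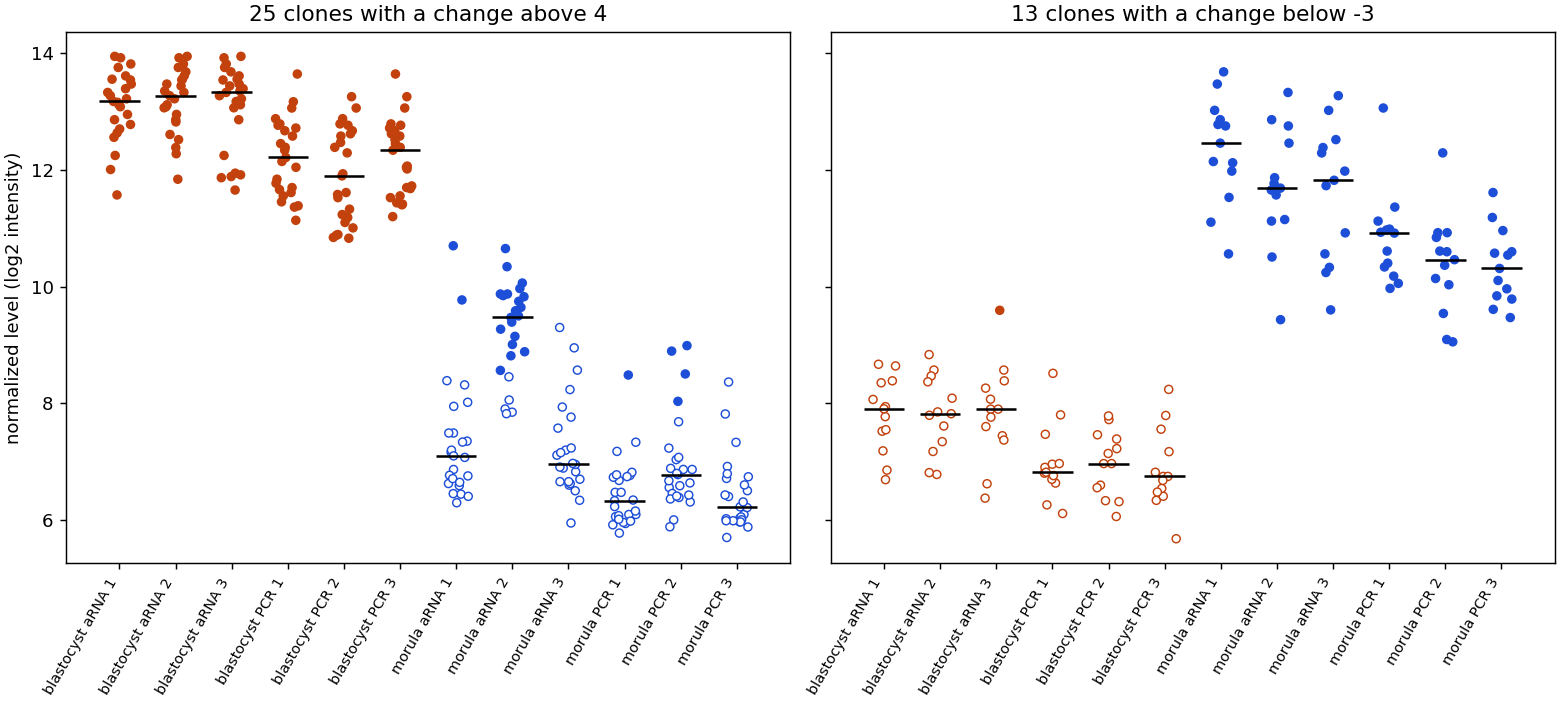
Normalized level (vertical axis, log2 intensity) on each of the 12 arrays for the 25 clones with a change above 4 and the 13 clones with a change below -3, blastocyst minus morula on the log2 scale. Each point is a clone, filled where it lies above the array's detection level, and black lines are medians. The aRNA array of morula pool 2 sits above the other morula arrays for the rises (median 9.47), and the median of the falls lies between 10.31 and 12.46 on the morula arrays.

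Clones were then sorted by the arrays on which they were above detection. Of the 194 rises, 37 were above the detection level on all 6 blastocyst arrays and on 0 or 1 morula array, with a median size of 4.68, and 3 were above it on all 12 arrays. Of the 207 falls, 25 were above the level on all 6 morula arrays and on 0 or 1 blastocyst array, with a median size of 3.02, and 26 were above it on all 12 arrays, with a median size of 1.21. Among the 1651 clones that were not called, 1 was above the level on all blastocyst arrays and on 0 or 1 morula array, 0 showed the opposite pattern and 81 were above it on all 12 arrays. A further 65 rises and 38 falls were above the level on none of the 12 arrays, with median sizes of 0.98 and 0.84. The difference between rises and falls in these shares was not tested.

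Some clones held their level. The 95% interval of the change lay within 0.5 of 0 for 104 clones that were called in no fit, of which 90 were above detection on no array and 1 on all 12. That 1 was lcao0044g08, the brightest of them. Its level was 12.03, 12.24 and 12.05 in blastocyst pools 1, 2 and 3, against 11.98, 12.16 and 12.11 in morula pools 1, 2 and 3. The pools of both stages interleaved, with a change of 0.03 ± 0.18 (SE; 95% interval -0.38 to 0.43; limma adjusted p of 0.94). This depended on quantile normalization, since under median centring its change was 0.82, still not called (limma adjusted p of 0.554). The next brightest, lcap0019f08, had levels of 9.41, 9.38 and 9.01 in blastocyst pools 1, 2 and 3, against 9.29, 9.39 and 9.12 in morula pools 1, 2 and 3. Its change was -0.00 ± 0.20 (SE; 95% interval -0.45 to 0.44; limma adjusted p of 0.99). It was above detection on 5 of the 6 arrays of each stage.

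Clones with different name prefixes moved differently. The prefixes lcao and lcap had 1017 clones each, and no source used here says what they mean. In lcao 134 clones rose (13.2%) and 45 fell (4.42%), with a median change of 0.05, whereas in lcap 58 rose (5.7%) and 162 fell (15.9%), with a median change of -0.20, against a median of -0.08 over all clones. Of the 15 lcal clones 2 rose and 0 fell, and 0 of the 3 lcaq clones were called. Relative to the median of all clones in a pool, the median lcao clone lay 0.05, 0.04 and 0.05 above in blastocyst pools 1, 2 and 3 and 0.21, 0.08 and 0.18 below in morula pools 1, 2 and 3 (log2 level). The median lcap clone lay below the pool's median in all 3 blastocyst pools and above it in all 3 morula pools. The smallest of these morula distances was in pool 2 for both prefixes. Since lcao and lcap together hold nearly all clones, a median of 1 prefix above the pool's median puts the other below it. The side of the lcap median is therefore not a second result beside that of lcao. Under median centring 72 lcao clones rose and 1 fell, while 25 lcap clones rose and 41 fell. Leaving out a pool gave 96 to 158 rises and 15 to 64 falls in lcao, and 43 to 64 rises and 97 to 215 falls in lcap. The lowest number of falls in each prefix was without blastocyst pool 1, and the highest without morula pool 2. No test of the difference between prefixes was run.

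Within lcao the rises were concentrated by plate, the number in the clone name. The plate numbers leave a gap between 36 and 40, and the clones were divided there after the values were seen. In plates 17 to 36, 113 of 597 clones rose (18.9%) and 20 fell (3.35%), and 24 of the 25 rises larger than 4 came from these plates. In plates 40 to 49, 21 of 420 clones rose (5%) and 25 fell (5.95%). Under median centring 68 clones rose and 0 fell in plates 17 to 36, and 4 rose and 1 fell in plates 40 to 49. More clones rose than fell in 19 of the 20 plates of the lower range, with 3.12% to 36.4% of a plate's clones rising. In the upper range this was so for 3 of 10 plates, with 6 the other way round and 1 tie. In lcap 22 of the 25 plates had more falls than rises. Leaving out a pool gave 88 to 131 rises and 7 to 35 falls in plates 17 to 36, and 8 to 27 rises and 8 to 29 falls in plates 40 to 49. The low end was without blastocyst pool 1 and the high end without morula pool 2 throughout. Which direction had more calls in plates 40 to 49 depended on the setting. There were 21 rises and 13 falls without blastocyst pool 3, 17 and 13 without morula pool 3, 50 and 44 without array code 4, and 60 and 52 with array weights. In plates 17 to 36 rises outnumbered falls under each of these settings. Every range of plates was spread over all 16 blocks of the filter. Of the 100 brightest clones in blastocysts, 58 came from lcao plates 17 to 36 and 12 from lcap, against 26 and 37 of the 100 brightest in morulae.

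**Figure D4:**
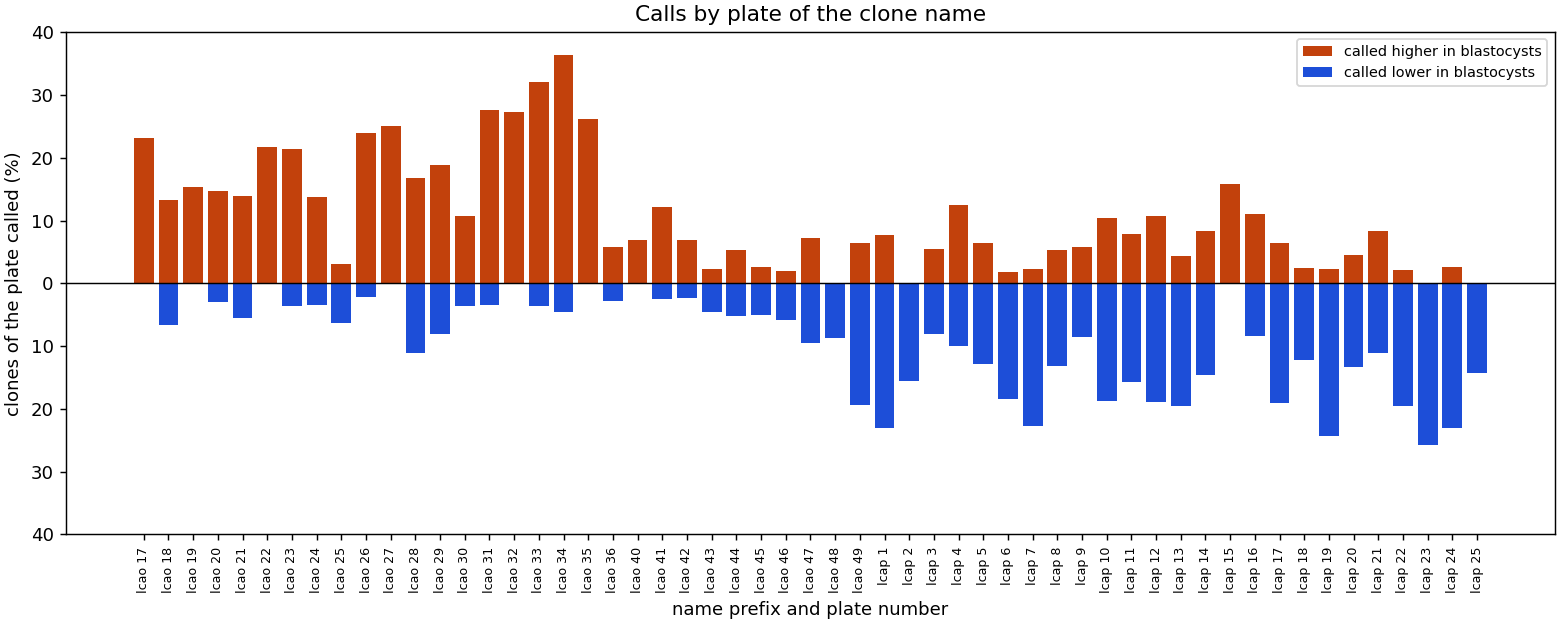
Share of each plate's clones that rose (bars upwards) and fell (bars downwards) in blastocysts relative to morulae, in percent of the clones of the plate (vertical axis), by name prefix and plate number (horizontal axis). Rises outnumber falls in 19 of the 20 lcao plates up to 36, and falls outnumber rises in 22 of the 25 lcap plates.

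The 2 amplifications of the same RNA were compared next. On aRNA arrays alone 338 clones were called (16.5%), 168 up and 170 down, and on PCR arrays alone 200 (9.75%), 120 up and 80 down. Median centring gave 97 rises and 49 falls on aRNA arrays, so that 66.4% of calls were rises, against 49.7% in the main fit. On PCR arrays it gave 60 rises and 19 falls, 75.9% against 60%. Both amplifications called 93 rises, which were 55.4% of the aRNA rises and 77.5% of the PCR rises. They shared 55 falls, 32.4% of the aRNA falls and 68.8% of the PCR falls, and 0 clones were called in opposite directions. All 401 clones called on pool means changed in the same direction on both, against 73.2% of all clones, a contrast that the call on their mean favours by itself. Across the 2052 clones, which are not independent replicates, the 2 changes correlated at r of 0.85, a description of arrays made from the same RNA.

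Changes were larger on aRNA arrays in the median. The rises had a median change of 1.62 on aRNA arrays and 1.31 on PCR arrays, and the falls one of -1.29 and -1.05. The 25 rises larger than 4 ran higher on PCR arrays, from 4.28 to 6.89, against 3.20 to 5.91 on aRNA arrays. Each amplification was normalized on its own, so the sizes need not be on the same scale. A test of the difference itself, on PCR minus aRNA within each pool, called 0 clones (0%; limma, lowest adjusted p of 0.11), with 161 clones (7.85%) at an unadjusted p under 0.05. The median SE of that difference was 0.39. It called 1 clone under median centring, 42 with array weights and 2 with the replicate number as a block. Without blastocyst pool 2 the aRNA arrays gave 220 calls and 104 falls, and without morula pool 1 they gave 106 falls. The PCR arrays gave 113 calls without blastocyst pool 1, 127 without blastocyst pool 3 and 335 without morula pool 2. PCR falls numbered 38, 46 and 45 without blastocyst pools 1, 2 and 3, and 53 and 184 without morula pools 1 and 2, and PCR rises numbered 75 without blastocyst pool 1.

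**Figure D5:**
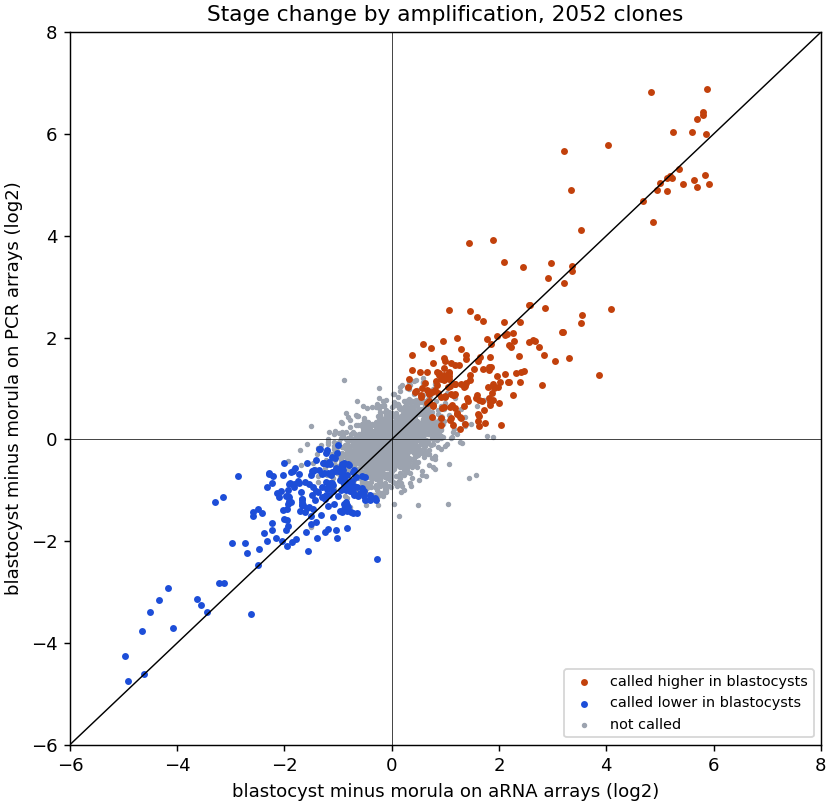
Change from morula to blastocyst on PCR arrays (vertical axis, log2, blastocyst minus morula) against that on aRNA arrays (horizontal axis), one point per clone, coloured by the call on pool means, with the line of equal changes. All 401 called clones lie in the lower left or the upper right quadrant, 93 rises and 55 falls being called in both amplifications.

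Blastocyst pool 1, collected at 96 h, did not stand apart from the pools at 90 h. It correlated with pool 2 at r of 0.99 and with pool 3 at 0.93, and pools 2 and 3, both of 90 h, correlated at 0.93. Of the 194 rises, 90 were higher in it than in the mean of the other 2 blastocyst pools, with a median deviation of -0.04, and of the 207 falls, 79 were lower, with a median deviation of 0.09. Blastocyst pool 3 went further in the direction of the change. In it 136 of the rises were higher and 137 of the falls were lower than the mean of the other 2 pools. These clones were called with pool 3 included. Over all clones pool 3 also differed most from the mean of the other 2 blastocyst pools. Its median absolute difference was 0.29, against 0.17 for pool 1 and 0.19 for pool 2. A single pool at 96 h allows no test of collection time.

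The array code digit in the titles (4, 5 or 6) was shared by 1 blastocyst pool and 1 morula pool each, and no source used here says what it stands for. Within codes 4, 5 and 6 the rises had a median change of 1.54, 1.38 and 1.34, and the falls one of -1.22, -1.06 and -1.25. Deviations from the stage means correlated across clones at r of 0.21, 0.11 and 0.07 between the pools that share code 4, 5 and 6. With the code as a block 400 clones were called, 195 up and 205 down, and 367 of them were among the 401.

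Some of the smaller rises lay beside brighter spots. The 8 grid positions around each clone were searched for a spot at 4 times its mean raw intensity or more, which 1285 clones (62.6%) had. Such a neighbour was present for 54 of the 58 lcap rises (93.1%), 53 of the 162 lcap falls (32.7%), 72 of the 134 lcao rises (53.7%) and 21 of the 45 lcao falls (46.7%). For the lcap rises it was another clone in 52 cases, and that clone had itself a positive change in 50 of them. Among all lcap clones, it was another clone in 579 cases, with a positive change in 252. Of the 65 rises that were above detection on no array, 62 had such a neighbour (95.4%), and of the 38 falls above detection on no array, 22 did (57.9%). The limit is relative to a clone's own intensity, so dim clones meet it more easily. The share among all 1201 clones above detection on no array is not given here. Among called clones whose bright neighbour was a clone, 161 of 192 (83.9%) changed in the neighbour's direction, against 628 of 961 (65.3%) of clones that were not called. Among the 767 clones with no such neighbour, 199 were called (25.9%), 66 up and 133 down. These comprised 62 rises and 24 falls in lcao, and 4 rises and 109 falls in lcap. Without a bright neighbour, 52 of 214 clones rose and 12 fell in lcao plates 17 to 36, and 10 of 171 rose and 12 fell in plates 40 to 49. The steady clone lcap0019f08 lay beside lcao0044g01, a spot at 11.0 times its intensity that rose by 4.13 (named here for its position). Whether signal from adjacent spots raised these clones was not tested.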

How the data were processed

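The array tables deposited by the authors hold 1 intensity per spot on a linear scale, quantified with AGScan per the file headers, with no background column. Each spot also has a deposited quality value of 0 or 1, which no header or label explains. The series table deposited by the authors holds a score per spot name, whose log base no header or label states. The score was used as an alternative, and 0 of its columns belong to other samples. Background was removed from the 2304 spots of each array by normexp in limma (offset 50). The values were log2 transformed and quantile normalized over the 2087 clone spots within each amplification. Spots of a clone were averaged, and the aRNA and PCR values of a pool were averaged, since they measure the same RNA.

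Per the labels, each pool is its own batch of embryos, so the pool was the replicate (3 per stage). The 6 pools were fitted with limma (lmFit and eBayes), as blastocyst minus morula, with calls at a Benjamini-Hochberg adjusted p under 0.05 over all clones. The 6 arrays of each amplification and the within-pool differences were fitted in the same way. The number of arrays limits the precision. Quantile normalization gives the brightest spots of different arrays nearly the same value, so the SD of the brightest clones is understated.

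A fold is given as "at least" where a clone was above the detection level on 0 or 1 array of the dimmer stage. It sets the brighter stage's mean against the mean of, per array, the clone's own value or, if higher, the lowest clone spot above the level. The named clones were the 2 largest rises and 2 largest falls called with the same sign in the pool fit and in each amplification, and the 2 brightest clones whose 95% interval lay within 0.5 of 0 and that were called in no fit. The comparison, lists and rules were chosen with earlier results of these data known. Gene lists could not be used, since no table pairs clones with genes, and no sequence is shown for the same reason.

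No label says that same-numbered pools share animals or a day. The correlations of their deviations from the stage means were 0.12, -0.20 and -0.21, so the numbers were not taken as pairs. Alternatives were median centring, quantile normalization of all 12 arrays together, no normexp, the score, the 4-cell pools included, a filter on the dimmest 25% of clones, array weights, blocks, single arrays with the pool as a random block, each pool left out, no bright adjacent spot and the quality column. Leaving out both pools of array code 4, the refits of the largest changes and the plate ranges were added after seeing the data. Fits used limma 3.58.1 in R 4.3.3, and figures used pandas 2.3.3 with matplotlib 3.10.9. Scripts were tested on simulated data.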

Additional observations from a re-analysis of the deposited data

How the results depend on the processing

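The 4 changed clones kept their direction and their call in 74 of 74 recalculations, with a highest limma adjusted p of 0.00378. The 2 steady clones were not called in 36 of 36, with a lowest limma adjusted p of 0.35. All these clones were picked by their changes and calls in the main fits on the same arrays, so this is a description. Clones lcao0026e02 and lcao0035c10 had quality value 1 on fewer than 6 arrays and were not tested in that setting. Nor was lcap0019f08, which was also left out of the setting without bright adjacent spots. Of 329 recalculated counts, 202 stayed within 1.5 times the main count. For the 401 calls (194 up, 207 down), leaving out a pool gave 252 to 505 (140 to 224 up, 112 to 281 down). Median centring gave 139 (97 up, 42 down), array weights 823 (357 up, 466 down) and no array code 4 684 (304 up, 380 down). Among the 767 clones without a bright adjacent spot 199 were called (66 up, 133 down), and rises made up 33.2% of these calls. Among the 412 clones with quality value 1 on at least 6 arrays 179 were called (55 up, 124 down). Rises made up 30.7% of these, against 48.4% in the main fit. For the aRNA arrays (338, 168 up, 170 down), leaving out a pool gave 220 to 348 (116 to 182 up, 104 to 170 down). Median centring gave 146 (97 up, 49 down), array weights 696 (310 up, 386 down), no array code 4 626 (284 up, 342 down), no bright adjacent spot 163 (61 up, 102 down) and the quality column 155 (51 up, 104 down). For the PCR arrays (200, 120 up, 80 down), leaving out a pool gave 113 to 335 (75 to 151 up, 38 to 184 down). Median centring gave 79 (60 up, 19 down), array weights 426 (197 up, 229 down), no array code 4 337 (161 up, 176 down), no bright adjacent spot 109 (50 up, 59 down) and the quality column 105 (33 up, 72 down). The cause of the changed counts was not tested for median centring, array weights, array code 4, bright adjacent spots or the quality column. The replicate block, with numbers that do not pair the pools, gave 290 calls (153 up, 137 down), 286 on aRNA and 157 on PCR arrays. The test of amplification by stage called 0 clones in the main fit, 1 under median centring, 42 with array weights, 2 with the replicate block and 0 whichever pool was left out. Fits without a pool leave 2 pools in a stage, and fits without array code 4 leave 2 in each. The sign of the 401 clones was kept under all settings in which they were tested, except for 1 clone under median centring and 2 with the score. In the main fit the pools of the stages overlapped for 1 of these clones. Leaving out a pool or weighting the arrays could therefore not change the sign of the others. The filters, the blocks and the fit with the pool as a random block leave a clone's change as in the main fit. In these settings the sign could not change for any clone. The same holds for the direction of the 4 changed clones. Clones below the detection level set a limit, since 1201 of the 2052 were above it on 0 arrays.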

Other observations

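Spots that carry the same clone name did not always give the same change. There were 16 clones with several spots, and 2 of these were called, both as rises. The clone with the widest range, lcao0032f11, was chosen after its values were seen. Its 3 spots gave changes of 0.37, 6.11 and 1.32 (blastocyst minus morula, log2), and its levels were 7.31, 12.76 and 8.18 in blastocysts and 6.93, 6.65 and 6.85 in morulae. The average of the 3, a change of 2.60, put this clone among the 194 rises, and whether they carry the same insert is in doubt. The spot with 6.11 was bright itself, the spot with 1.32 lay beside a spot at 38.8 times its intensity with a change of 5.83, and the spot with 0.37 beside one at 4.13 times its intensity with a change of -1.01. The spots of lcao0029c06, chosen in the same way, gave -0.52, 2.44, 0.08 and 0.37. The one with 2.44 lay beside a spot at 14.0 times its intensity with a change of 5.17, and the one with -0.52 beside a spot at 21.7 times its intensity with a change of -4.83. The spots with 0.08 and 0.37 lay beside spots at 33.6 and 4.39 times their intensity with changes of -0.15 and -0.51, against their own sign. Over the 16 clones the median range of the change between spots was 0.62, and the spots of 5 clones agreed in sign.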
